A study of Mus musculus with 16 samples.

Results

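For each gene expressed in mouse liver, the difference between dosing at circadian time 16 (CT16) and circadian time 8 (CT8) was compared between mice without cryptochromes and wild-type mice. The quantity is an interaction on the log2 scale: CT16 minus CT8 in the knockouts, minus CT16 minus CT8 in wild type. A positive value means that going from CT8 to CT16 moved a transcript further upward in the knockouts than in wild type. All 16 libraries of the series entered it, in 4 groups of 4, and of the 40840 gene symbols counted, 14484 had enough reads to be tested. The contrast was also computed on 15 libraries, without 1 wild-type library that stands apart, where 14696 genes were tested.

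The groups were C57BL/6J wild type (WT) at CT8, WT at CT16, and Cry1-/-Cry2-/- mice (CryDKO) at CT8 and at CT16, males of 12 to 16 weeks. The knockout is a germline loss in the whole body, so cells outside the liver lack the genes too. All had spent 3 weeks under 12 h of light per day and then 3 days in constant darkness. All were given oxaliplatin, a platinum compound that forms adducts and crosslinks on DNA, by intraperitoneal injection at 12 mg/kg on 3 consecutive days, although the series text also speaks of a single dose. No group without drug was analysed here, so every value is a difference between drug-treated animals. When the livers were taken is not stated in the labels, so the hour of dosing and the hour of sampling cannot be told apart. Nor is it stated whether a group's libraries come from separate animals, so p values measure only the spread among these libraries, part of which may be technical. In whole liver, fewer cells of a type and less RNA per cell cannot be told apart.

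Cryptochromes CRY1 and CRY2 are the repressor proteins of the circadian clock. With the PERIOD proteins they bind the activator pair CLOCK and BMAL1 and stop it from driving genes with E-box elements, among them their own, which closes a daily loop. In the liver the loop times much of metabolism, from bile acid and glucose handling to drug detoxification, and mice that lack both cryptochromes have no running clock in constant darkness. With 2 dosing times in 2 genotypes, the design asks whether the difference between times depends on the cryptochromes.

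Before the results, the state of the libraries needs to be given. Levels are given in CPM, a gene's reads relative to the TMM-scaled total of its library, where TMM is the scaling that sets the bulk of genes equal between libraries. Libraries hold 18083916 to 29934138 reads and are called by their group and the running number of their column, which is not a replicate number. The WT_CT16 library numbered 8 stood apart from numbers 5, 6 and 7. On the first principal component (42.3% of the variance of log2 values) it lay at -54.9, inside the -67.7 to -50.0 of the WT_CT8 libraries, while numbers 5 to 7 lay at -18.7 to -3.86, and the library nearest to it was WT_CT8 library 3. Its TMM scaling factor, 1.203, was also that of a CT8 library (1.131 to 1.241, against 0.921 to 0.955 in numbers 5 to 7). In the 8 libraries labelled CryDKO the 2 times were mixed: for 7 of them the nearest library belonged to the other time, while all 4 of the WT_CT8 group and 3 of the 4 of the WT_CT16 group were nearest to their own. Libraries of a group differed by far more than counting error, with chi-square values of 22.1 to 150.0 per degree of freedom. The 9 hepatocyte markers in the table summed to 51700 to 66500 CPM in WT at CT8, 81900 to 91560 CPM in WT_CT16 libraries 5 to 7 and 56930 CPM in library 8, and to 103000 to 141000 and 99300 to 156000 CPM in CryDKO at CT8 and CT16. They were abundant in every library, every CryDKO library was above every WT library, and library 8 lay with WT_CT8. Of 12 markers of pancreas, fat and muscle 6 were at 0 reads: pancreatic Prss2, Cpa1, Cpb1 and Pnliprp1 and muscle Ckm and Myh4. Others of the 12 were present. Cela1 ran from 4.94 CPM in CryDKO_CT16 library 11 to 11.02 CPM in WT_CT8 library 1. Cfd was at 0.0825 to 1.51 CPM in WT and 0 to 0.0885 CPM in CryDKO.

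The targeted genes were examined in every library first. Cry1 stood at 15.9, 9.22, 9.40 and 14.1 CPM in WT at CT8 and at 7.38, 5.14, 5.33 and 6.14 CPM in WT libraries 5 to 8 at CT16. Libraries labelled CryDKO held more, 25.6, 26.5, 27.1 and 20.5 CPM at CT8 and 27, 26, 24.3 and 29 CPM at CT16. Cry2 was lower in the libraries labelled CryDKO, 23.1 to 33.3 CPM at CT8 and 24.1 to 30.3 CPM at CT16, than in WT, 39.9 to 53 and 44.2 to 58.9 CPM. Reads counted over a whole gene do not show the deleted part, so the Cry1 counts did not check the knockout, and directions by genotype rest on the labels.

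Cry1 was itself among the genes with an interaction in the 15 libraries, as was Lonrf3, a ring-finger gene listed among clock outputs, and Tnfaip3 was 1 of the 6 called with all 16. Of the 66 genes examined closely, 54 had an entry in RefSeq's promoter table (build GRCm38.p6, matched by symbol; the counts themselves were made on GRCm39). A window from 250 bases before to 50 after the transcription start was searched on both strands for CACGTG, the E-box bound by CLOCK and BMAL1, and for TTATGNAA, a D-box form bound by DBP and its relatives. The E-box letters were in windows of 13 of the 54 genes, in those of 8.09% of all 27025 genes in the table, and in 7.15% of all 32851 windows, since a gene can have more than 1 window. The D-box letters were in 5 of the 54 genes, 3.99% of all genes and 3.38% of all windows. Of the 13, Cry1, Per1, Ciart, Bhlhe41, Tef and Lonrf3 were examined because they belong to the clock, so the share among the 54 is not that of a neutral set. Tnfaip3 was the only 1 of the 6 genes called with all 16 libraries that was among the 13. Of these 6, LOC118568335 had no entry and was not searched. The 250 bases before the start are shown for the 3 genes named above, with the E-box in capitals. They read from chr10:85185055-85185304 on the minus strand for Cry1, chrX:36328159-36328408 on the plus strand for Lonrf3 and chr10:19015411-19015660 on the minus strand for Tnfaip3. The table's other window of Tnfaip3 held neither motif.
Cry1: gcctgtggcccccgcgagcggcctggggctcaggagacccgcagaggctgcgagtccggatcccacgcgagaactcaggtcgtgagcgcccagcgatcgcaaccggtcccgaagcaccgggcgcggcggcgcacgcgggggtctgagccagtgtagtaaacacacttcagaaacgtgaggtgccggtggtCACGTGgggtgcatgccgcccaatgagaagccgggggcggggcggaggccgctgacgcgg
Lonrf3: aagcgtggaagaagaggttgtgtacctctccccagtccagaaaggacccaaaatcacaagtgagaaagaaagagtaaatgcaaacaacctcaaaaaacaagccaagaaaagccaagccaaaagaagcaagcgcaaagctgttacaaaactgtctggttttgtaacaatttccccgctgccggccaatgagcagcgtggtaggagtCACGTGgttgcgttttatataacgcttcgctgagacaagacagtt
Tnfaip3: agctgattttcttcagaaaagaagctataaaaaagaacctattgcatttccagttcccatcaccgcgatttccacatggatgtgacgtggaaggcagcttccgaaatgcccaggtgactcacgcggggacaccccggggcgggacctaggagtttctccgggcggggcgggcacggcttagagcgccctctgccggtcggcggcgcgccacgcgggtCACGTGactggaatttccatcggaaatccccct
The E-box began 60 bases before the start in Cry1, 45 in Lonrf3 and 33 in Tnfaip3. A match is a description of the sequence and not evidence of binding, which was not measured.

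With all 16 libraries, 6 of the 14484 genes passed an adjusted p of 0.05 (edgeR quasi-likelihood test, Benjamini-Hochberg over all genes tested), 0.0414% of those tested. Of these 4 were positive (0.0276%) and 2 negative (0.0138%). In all 6 the fitted time changes of the 2 genotypes had opposite signs, and in all 6 the gap between genotypes was wider at CT8 than at CT16. The lowest p belonged to Ppib, which encodes cyclophilin B, a proline isomerase that helps secreted proteins fold in the endoplasmic reticulum. The others were Tnfaip3, Sult5a1, Cyp2j9, and a pair of gene models, Gm43549 and LOC118568335, to which no function is assigned here.

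Ppib stood at 33, 26.4, 21 and 18.5 CPM in WT at CT8 and at 69.4, 64.4, 57.4 and 55.8 CPM at CT16, with no overlap. In CryDKO it stood at 42, 56.6, 79.3 and 51.1 CPM at CT8 and at 46.3, 46.7, 41.5 and 39.4 CPM at CT16. The CryDKO groups overlapped, and WT at CT8 lay below every other library. The log2 time change was 1.32 ± 0.19 (SE) in WT and -0.40 ± 0.18 in CryDKO, which gave an interaction of -1.72 ± 0.26, adjusted p = 0.0260. Library 8 held 55.8 CPM here, next to libraries 5 to 7, and without it the interaction was -1.80 ± 0.27, adjusted p = 0.0152.

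Tnfaip3 encodes A20, the ubiquitin-editing enzyme that shuts off NF-kB signalling and is itself induced by it. It was a low transcript: 1.80, 2.44, 2.35 and 2.36 CPM in WT at CT8 and 4.04, 4.10, 2.50 and 3.56 CPM at CT16. In CryDKO the order was the opposite, 10.7, 5.44, 4.48 and 6.30 CPM at CT8 and 2.29, 2.21, 2.28 and 3.23 CPM at CT16, without overlap between the times in either genotype. The highest value was in CryDKO_CT8 library 9. The interaction was -2.09 ± 0.37, adjusted p = 0.0398. Of the 21 tested genes of NF-kB feedback and targets Tnfaip3 alone passed, and the list's median was -0.341, against 0.0102 over all genes tested.

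Sult5a1, a cytosolic sulfotransferase gene, had the widest difference among the named genes of the 6. It stood at 9.33, 5.32, 4.20 and 4.43 CPM in WT at CT8 and 4.29, 1.47, 4.81 and 4.15 CPM at CT16, and the times overlapped. In CryDKO all 4 libraries at CT8 were low, 0.610, 0.494, 0.553 and 0.347 CPM, and all 4 at CT16 were above them, 2.12, 3.05, 2.11 and 2.82 CPM. The log2 time change was -0.66 ± 0.32 in WT and 2.32 ± 0.38 in CryDKO, so most of the interaction of 2.98 ± 0.50 (adjusted p = 0.0398) came from the CryDKO libraries. In the other 3 positive genes the fitted change was larger in size in WT.

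Cyp2j9 belongs to the cytochrome P450 2J family, whose enzymes oxidise fatty acids. It was high in WT at CT8, 23.4, 36.2, 19.6 and 31.2 CPM, and lower at CT16, 7.71, 11.5, 11 and 17.2 CPM. In CryDKO it was 6.01, 12.2, 7.97 and 7.39 CPM at CT8 and 12.3, 14.8, 17.9 and 14.8 CPM at CT16. The genotypes were apart at CT8, with no overlap, and overlapped at CT16. The interaction was 2.05 ± 0.35 (adjusted p = 0.0398), from -1.22 ± 0.24 in WT and 0.83 ± 0.25 in CryDKO. Mouse 2J genes lie in a cluster of close relatives, so reads could be split between them; Cyp2j5 also passed in the 15 libraries.

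Gm43549 stood in WT at 2.83 to 8.37 CPM at CT8 and 0.660 to 1.74 CPM at CT16, and at 0.149 to 0.654 and 0.820 to 1.54 CPM in CryDKO. LOC118568335 ranged over 4.49 to 7.47 CPM at CT8 and 1.21 to 2.55 CPM at CT16 in WT, and over 0.180 to 0.775 and 0.359 to 1.60 CPM in CryDKO. Both had an interaction of 3.38 on the log2 scale and an adjusted p of 0.0398. In both, every WT library at CT8 was above every other library.

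**Figure D1:**
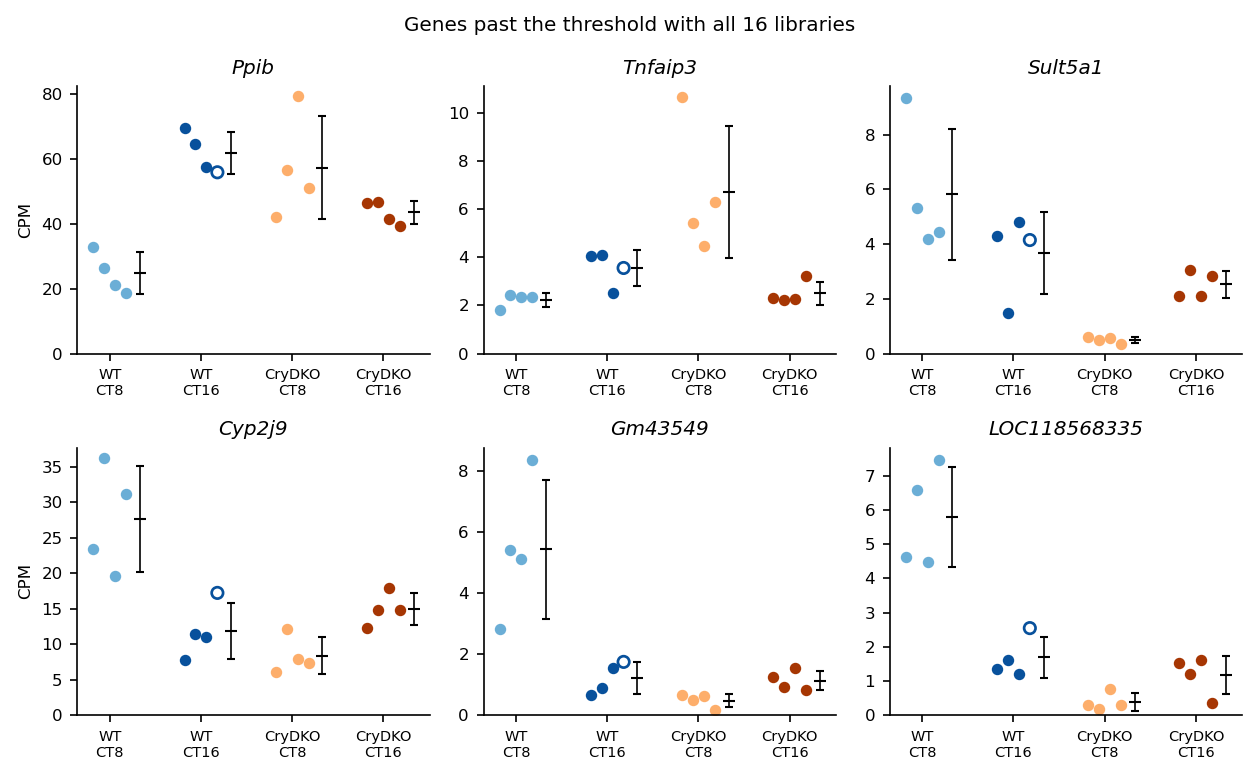
CPM of the 6 genes past the threshold with all 16 libraries. Each point is 1 library, the open circle is WT_CT16 library 8, and black bars give the mean ± SD of the 4 libraries. Library 8 lies with the other CT16 libraries in Ppib, and WT at CT8 is apart from the rest in Ppib, Cyp2j9, Gm43549 and LOC118568335.

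A count of 6 did not describe the lower p values well: 1927 genes, 13.3% of those tested, had an unadjusted p under 0.05. The calls were also sensitive to the libraries. None of the 6 passed without WT_CT8 library 2 or 4, WT_CT16 library 5, or CryDKO_CT16 library 12 or 13, where 0 genes passed in all (1451 to 1920 at an unadjusted p under 0.05). Ppib passed in 11 of the 16 fits that leave out a library, Sult5a1 in 8, Gm43549 in 6, Tnfaip3 in 5, Cyp2j9 in 4 and LOC118568335 in 3, and none of them changed sign in any.

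Leaving out WT_CT16 library 8 raised the count to 568 of 14696 genes, 3.86% of those tested, 275 positive (1.87%) and 293 negative (1.99%). At an unadjusted p under 0.05 there were 3460, or 23.5%. All 6 genes of the full set remained among the 568, and 92.58% of the genes tested in both fits had an interaction of the same sign. The median standard error hardly moved, 0.290 with 16 libraries and 0.292 with 15. The median size of an interaction went from 0.307 to 0.390 on the log2 scale. The common dispersion, edgeR's measure of the spread between libraries, fell from 0.05506 to 0.04997. Both medians are over all genes tested, and genes that gained a call differed. The standard error fell from 0.635 to 0.449 for Clec4f and rose from 0.644 to 0.666 for Lcn2. How far the gain in calls came from larger estimates or from smaller errors was not tested. The library was left out with its place among the CT8 libraries known, and removing a WT_CT16 library that lies near WT_CT8 widens the WT time difference by construction. The 568 therefore describe what these 15 libraries show and are no independent support for the 6.

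**Figure D2:**
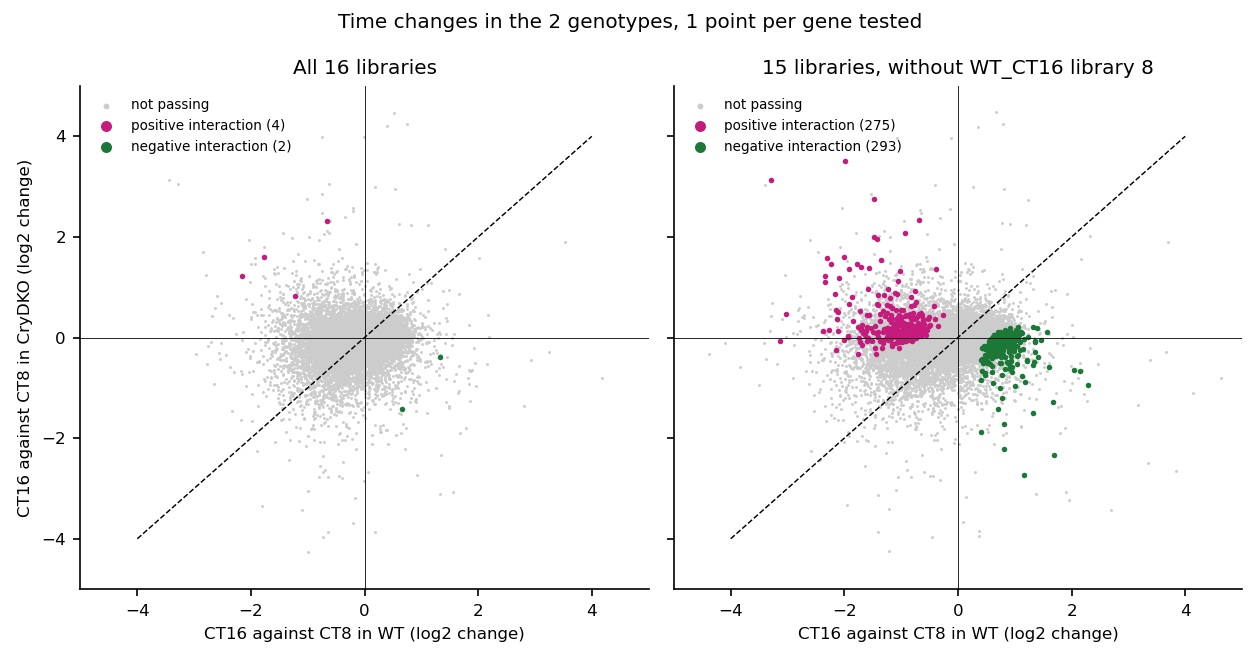
Log2 time change, CT16 against CT8, in WT (x axis) and CryDKO (y axis), 1 point per gene tested, with all 16 libraries on the left and 15 on the right. The dashed line marks equal changes; the 275 positive and 293 negative genes on the right lie mostly along the x axis, to either side of 0, so their WT change is larger than their CryDKO change.

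The 568 genes had a common shape in the 15 libraries. All 275 positive genes were lower at CT16 than at CT8 in WT, with a median log2 change of -1.03, and in CryDKO the median was 0.175. All 293 negative genes were higher at CT16 in WT, with a median of 0.758, and in CryDKO the median was -0.152. The WT change was the larger in size in 262 of the 275 and in 275 of the 293. The same values can be read as a gap between genotypes. At CT8 the positive genes were lower in CryDKO by a median of -1.02 and at CT16 stood at 0.215; the negative genes stood at 0.778 and -0.156. The gap was smaller at CT16 in 212 of the 275 and in 227 of the 293. These readings share the libraries and the values that made the call, so they describe the genes and test nothing.

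Over all genes the time changes of the 2 genotypes were barely related: across the 14696 genes Pearson's r was 0.106 and Spearman's rho 0.155, and with 16 libraries they were 0.107 and 0.156 across 14484. The spread of the WT time change was larger than that of CryDKO, with SDs over genes of 0.678 and 0.444 in the 15 libraries and 0.512 and 0.430 in the 16. Genes are not independent replicates, and the values carry the noise of the libraries as well as any change.

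Library 8 was not used in the fit that called the 568, but it was left out with its place among the CT8 libraries known. On a scale where 0 is the mean of the WT_CT8 libraries and 1 the mean of WT_CT16 libraries 5 to 7 (log2 of CPM plus 0.5), its median position over the 568 genes was 0.147, with quartiles of -0.0148 and 0.33. It lay nearer to WT_CT8 for 510 of the 568. Only 6 of the 568 also passed with library 8 included, so this position follows in part from how they were selected and supports nothing. The position of library 8 over all genes tested was not computed. Of 18 clock genes and outputs examined, 8 had WT_CT8 values apart from those of libraries 5 to 7, and a position means little for the other 10. Of the 8, library 8 lay nearer to CT16 for 6, at 0.939 for Cry1, 0.925 for Bhlhe41, 0.849 for Dbp and 0.814 for Nr1d1, and midway for Per2 and Lonrf3, at 0.517 and 0.534. For the other 2, Per3 (-0.331) and Rora (-0.609), it lay with WT_CT8. It also lay with CT16 for Tnfaip3 (1.06) and Ppib (0.866), both of which passed with library 8 included. It lay with WT_CT8 for the ribosomal gene Rpl34 (-0.082) and the urea cycle gene Ass1 (-0.0239). For the macrophage gene Clec4f (-0.594) it lay beyond WT_CT8, at 27.4 CPM against 14.3 to 20.1 CPM. The same held for Cd163, at 5.75 CPM against 2.35 to 4.12 CPM, and Vsig4, at 6.24 CPM against 3.02 to 5.76 CPM.

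The clock genes themselves came next. Among 11 tested clock repressors Cry1 alone passed in edgeR in the 15 libraries, where 3.86% of all genes passed. In a list of this size 1 call is near that share and says nothing particular about the list. DESeq2 called 4 there and voom 1, and 5 had an unadjusted p under 0.05. With 16 libraries 0 of the 11 passed, against 0.0414% of all genes. DESeq2 called 1 there and voom 0, and 4 had an unadjusted p under 0.05. Cry1, given above in every library, had a time change of -1.0 ± 0.20 in WT and 0.10 ± 0.17 in CryDKO. Its interaction was 1.09 ± 0.26 (adjusted p = 0.0315) with 15 libraries and 1.11 ± 0.24 (adjusted p = 0.103) with 16. The value was almost the same and the call was not. The unadjusted edgeR p of Cry1 was lower with 16 libraries, 0.000176 against 0.000519 with 15. The call thus came with the adjustment over all genes and not with a smaller p for Cry1. Lonrf3 stood at 13.7, 16.2, 12.2 and 15.3 CPM in WT at CT8 and 9.16, 3.96 and 6.28 CPM in libraries 5 to 7, with library 8 at 9.14. In CryDKO its times overlapped, 8.76, 8.72, 13.1 and 10.3 CPM at CT8 and 14.8, 9.07, 12 and 13.3 CPM at CT16. The interaction was 1.39 ± 0.32, adjusted p = 0.0258, and with 16 libraries 1.28 ± 0.31, adjusted p = 0.155.

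Other clock genes had large values that missed the threshold in edgeR in both fits. In 24 alternatives to the 15-library fit, by other settings or by leaving out a library, Per2 passed in 6 and Bhlhe41 in 5. Nr1d1 and Dbp passed in 2 each. Nr1d1, the gene of the nuclear receptor and repressor REV-ERB alpha, stood at 17.9, 43.7, 26.6 and 25.6 CPM in WT at CT8 and 77.7, 85.7, 60.3 and 61.2 CPM at CT16. In CryDKO it stood at 24.9 to 46 CPM at CT8 and 19 to 51.9 CPM at CT16. The WT times were apart and the CryDKO times overlapped, and the interaction in 15 libraries was -1.36 ± 0.43, adjusted p = 0.0832. Bhlhe41, a repressor that competes at E-boxes, had -1.20 ± 0.36 (adjusted p = 0.0611), and Dbp, an activator at D-boxes, -0.80 ± 0.27 (adjusted p = 0.0876). Per2, a partner of the cryptochromes, went the other way, with 1.01 ± 0.29 (adjusted p = 0.0598): it was 78.4 to 104 CPM in WT at CT8 and 26 to 57.2 CPM at CT16, and 48.2 to 77.9 and 31.5 to 60.0 CPM in CryDKO.

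Arntl, which encodes BMAL1, had 0.53 ± 0.43 (adjusted p = 0.478), with CryDKO libraries at 5.48 to 14.3 and 7.71 to 10.8 CPM and WT libraries at 1.67 to 3.53 and 0.941 to 1.90 CPM. Per3 stood at 0.80 ± 0.32, Rora at -0.48 ± 0.18, Ciart at -0.48 ± 0.31 and Nfil3 at 0.49 ± 0.35. The values of Clock (0.01 ± 0.22), Per1 (0.11 ± 0.28) and Tef (0.03 ± 0.21) were smaller than their standard errors. So were those of Nr1d2 (-0.04 ± 0.24) and Hlf (-0.14 ± 0.28), whose sign turned when libraries were scaled by size alone, as did that of Cry2 (-0.22 ± 0.20). Over all 24 alternatives the sign turned in 8 for Clock, 7 for Nr1d2, 6 for Tef, 2 each for Per1 and Hlf and 1 for Cry2. Except for Cry2, leaving out a library was among the changes that turned it. Bhlhe40 stood at -0.38 ± 0.31. Over the lists the medians were -0.0397 for the 11 repressors and -0.117 for 12 tested clock outputs, against -0.00377 over all genes. Of the 12 outputs Lonrf3 alone passed, near the 3.86% of all genes for a list of this size.

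**Figure D3:**
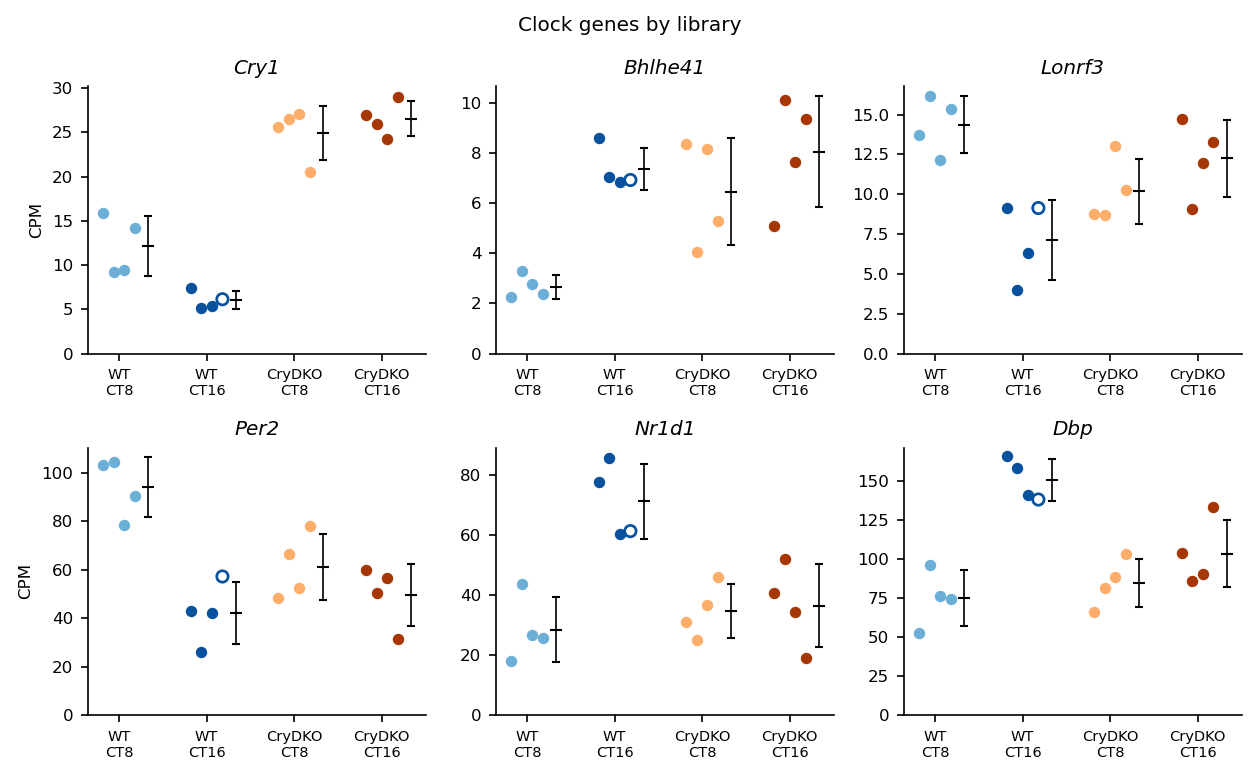
CPM of 6 clock genes in every library, 1 point per library, with the mean ± SD of 4 libraries in black and WT_CT16 library 8 as an open circle. In WT the times are apart in each of the 6, and in CryDKO they overlap in each; library 8 lies on the CT16 side of the WT_CT8 libraries in each.

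Outside the clock, the 10 largest negative values among the 568 belonged to genes of varied function. Apoa4, an apolipoprotein of triglyceride-rich particles, had -4.03 ± 0.96 (adjusted p = 0.0424). It stood at 117, 145, 250 and 125 CPM in WT at CT8 and 255, 832, 411 and 122 CPM in libraries 5 to 8 at CT16. In CryDKO it was 14158, 1829, 1801 and 3135 CPM at CT8, with library 9 by far the highest, and 1309, 1333, 645 and 839.6 CPM at CT16. Every CryDKO library at CT8 was above every other library, but the gene passed in only 4 of 15 fits that leave out a library. Aldh1b1, a mitochondrial aldehyde dehydrogenase, had -3.23 ± 0.65 (adjusted p = 0.0251), Cyp17a1, the steroid 17-hydroxylase, -2.81 ± 0.67 (adjusted p = 0.0416), and Nipal1, a magnesium transporter, -2.69 ± 0.61 (adjusted p = 0.0370). In these genes WT_CT16 library 6 was the highest of the WT libraries, at 215 CPM for Aldh1b1, 42.7 CPM for Cyp17a1 and 44.6 CPM for Nipal1.

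Lcn2, the iron-siderophore binding protein lipocalin 2 of the acute phase response, had -2.96 ± 0.67 (adjusted p = 0.0342). It stood at 149, 195, 345 and 398 CPM in WT at CT8 and 763, 822 and 933 CPM in libraries 5 to 7, with 436 CPM in library 8. In CryDKO the order was turned, 802, 512, 2065 and 1012 CPM at CT8 and 240.3, 675, 296 and 587 CPM at CT16, with some overlap. Slc41a3 (-2.07 ± 0.55), Acad12 (-1.97 ± 0.45), Abhd2 (-1.96 ± 0.45) and Adora1, the adenosine A1 receptor (-1.88 ± 0.47), completed the 10 largest negative values with Tnfaip3.

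Among the largest positive values Mup-ps12, a pseudogene of the major urinary proteins, stood at 4.23 ± 0.63 (adjusted p = 0.0152); its reads could come from its near-identical relatives. Hdc, the histidine decarboxylase that makes histamine, was at 29.7, 40.1, 14.5 and 24.1 CPM in WT at CT8, and at 8.75, 9.07 and 8.93 CPM in libraries 5 to 7 and 12.9 CPM in library 8. In CryDKO it was 9.81, 6.65, 8.58 and 12.2 CPM at CT8 and 12, 11.9, 14.6 and 11.9 CPM at CT16. WT at CT8 overlapped only with CryDKO at CT16, and the interaction was 2.00 ± 0.34 (adjusted p = 0.0152) with 15 libraries and 1.89 ± 0.34 (adjusted p = 0.0518) with 16. Nrep had 2.14 ± 0.40 (adjusted p = 0.0179), Nup62cl 2.5 ± 0.65 (adjusted p = 0.0415) and Wfdc17 2.18 ± 0.55 (adjusted p = 0.0392). Nup62cl was near the floor in WT, at 0.331 to 0.959 CPM at CT8, 0.108 to 0.184 CPM in libraries 5 to 7 and 0.488 CPM in library 8. It thus met the mean log2 CPM of 1 for naming through the CryDKO libraries. Trpm2, a cation channel of immune cells, had 2.07 ± 0.46, and Hk3, the hexokinase of myeloid cells, 2.00 ± 0.42. Sult5a1 (3.02 ± 0.53), Cyp2j9 (2.25 ± 0.33) and Cd163 completed the 10.

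Genes of periportal hepatocytes, those by the incoming blood, were next. Of 14 tested 4 passed as negative in the 15 libraries (Aldh1b1, Ass1, Gls2 and Hsd17b13) and 1 as positive (Sult5a1), against 1.99% and 1.87% of all genes, and the median was -1.29. Of 24 tested genes of gluconeogenesis and amino acid catabolism 4 passed as negative (Agxt, Ass1, Gls2 and Gpt), 0 as positive, and the median was -0.95. Agxt, which detoxifies glyoxylate in peroxisomes, stood at 139, 130.4, 129 and 99.6 CPM in WT at CT8 and 239, 426 and 262 CPM in libraries 5 to 7, without overlap, and library 8 held 167 CPM. In CryDKO the times overlapped, 214, 226, 216 and 203 CPM at CT8 and 172, 178, 177 and 280.3 CPM at CT16. Its interaction was -1.43 ± 0.29 (adjusted p = 0.0181). Ass1, the argininosuccinate synthase of the urea cycle, had -1.82 ± 0.47 (adjusted p = 0.0435) and Gls2, liver glutaminase, -1.68 ± 0.45 (adjusted p = 0.0484). Gpt, alanine aminotransferase, had -1.06 ± 0.28 and the lipid-droplet enzyme Hsd17b13 -1.38 ± 0.28. With all 16 libraries the medians were -1.04 and -0.731, and Sult5a1 alone of the genes of both lists passed. None of the 18 tested pericentral genes passed in the 15 libraries (3 at an unadjusted p under 0.05, 0 by DESeq2 or voom), and their median was 0.378.

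Lists of secretory and protective functions also had negative medians in the 15 libraries, where 1.99% of all genes passed as negative. So did the hepatocyte markers: all 9 had negative values, with a median interaction of -0.415 (median time change 0.424 in WT and 0.0518 in CryDKO), although 0 passed (1 at an unadjusted p under 0.05, 1 by DESeq2, 0 by voom). The part of hepatocyte RNA as a whole in the values of these lists, and of the periportal and amino acid lists, was not tested. Of 29 tested acute phase genes 3 passed as negative (Hpx, the haem scavenger hemopexin, -1.34 ± 0.33; Lbp, which binds bacterial lipopolysaccharide, -1.23 ± 0.33; and Lcn2), 0 as positive, with a median of -0.705. Of 27 tested members of the unfolded protein response and the integrated stress response 2 passed as negative, the disulfide isomerase gene Pdia6 (-1.09 ± 0.25, adjusted p = 0.0269) and the stress sensor Atf6 (-0.74 ± 0.20, adjusted p = 0.0490), with a median of -0.564. Pdia6 stood at 149.9 to 176 CPM in WT at CT8, 356, 286 and 307 CPM in libraries 5 to 7 and 201 CPM in library 8, and at 218 to 421 and 251 to 294 CPM in CryDKO. Of 20 genes of glutathione, metallothionein and NRF2 targets 3 passed as negative, Gsr (glutathione reductase, -0.98 ± 0.24) and the glutathione transferases Gstm2 (-1.28 ± 0.30) and Gstm4 (-1.22 ± 0.21), with a median of -0.949. Gstm4 was 49.3, 37.6, 32.6 and 30.8 CPM in CryDKO at CT8 and 21.9, 24.7, 22.1 and 20.7 CPM at CT16, without overlap, while WT libraries held 36.6 to 41.8 CPM at CT8 and 42.4, 55.3 and 59.2 CPM in libraries 5 to 7. Gstm genes share sequence, so their reads could be split. With 16 libraries 0 genes of these 3 lists passed in edgeR, against 11, 6 and 7 at an unadjusted p under 0.05, and DESeq2 called 4, 0 and 1.

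Genes that handle platinum damage were examined in 4 lists, and over all genes the share called in the 15 libraries was 3.86%. At these list sizes edgeR counts of 0 to 2 are near that share, so they say nothing particular about the lists. None of 26 tested p53 targets and none of 15 platinum transporters passed in either fit, with medians of 0.389 and 0.0991 in the 15 libraries. At an unadjusted p under 0.05 there were 4 and 1 in the 15 libraries and 2 and 0 in the 16, and DESeq2 and voom called 0 in both lists. Mdm2, the p53 inhibitor and target, had 0.73 ± 0.25 (adjusted p = 0.0998), and the copper and platinum importer gene Slc31a1 -0.45 ± 0.21 (adjusted p = 0.197). Of 24 nucleotide excision repair genes, which remove platinum adducts, Ddb2, the damage-recognition subunit, passed as positive (1.43 ± 0.36, adjusted p = 0.0381) and Rpa1, which coats single-stranded DNA, as negative (-0.71 ± 0.17, adjusted p = 0.0299). Of 25 crosslink and recombination repair genes 1 passed, about the share of all genes: Rev1, a translesion polymerase, passed as positive (1.29 ± 0.27, adjusted p = 0.0195). In the 15 libraries DESeq2 called 6 excision repair and 2 crosslink genes, and 1312 of 25017 over all genes, while voom called 2 and 1. At an unadjusted p under 0.05 there were 8 and 6, against 23.5% of all genes. With 16 libraries there were 6 and 4, and DESeq2 and voom called 0 in both lists. Rev1 stood at 25.8, 29, 18.7 and 29 CPM in WT at CT8, 14.7, 12.1 and 14.4 CPM in libraries 5 to 7 and 28.1 CPM in library 8. In CryDKO it stood at 10.2, 8.45, 13.8 and 16.7 CPM at CT8 and 16.5, 15.7, 18 and 15.6 CPM at CT16, with overlap. Library 8 held as much Rev1 as the WT_CT8 libraries, and with 16 libraries the value was 0.99 ± 0.34, adjusted p = 0.255.

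Markers of other liver cells also passed. Of 15 tested markers of Kupffer cells and macrophages 3 passed as positive in the 15 libraries, against 1.87% of all genes, the scavenger receptor Cd163 (2.34 ± 0.56, adjusted p = 0.0327), the lectin Clec4f (1.94 ± 0.45, adjusted p = 0.0342) and the complement receptor Vsig4 (1.83 ± 0.51, adjusted p = 0.0498), with a median of 1.02. Clec4f stood at 18, 20.1, 14.3 and 15.7 CPM in WT at CT8, 12.7, 4.82 and 6.32 CPM in libraries 5 to 7 and 27.4 CPM in library 8, the highest WT value. In CryDKO it stood at 25, 24.6, 12 and 11.8 CPM at CT8 and 33.8, 24.5, 40.5 and 34.9 CPM at CT16. With 16 libraries it was 1.27 ± 0.63, adjusted p = 0.400. All 15 markers were detected; summed they came to 110 to 144 CPM in WT at CT8 and 82.8 to 188 CPM in WT at CT16, with library 8 the highest, and to 111 to 251 and 156 to 275 CPM in CryDKO. Of 14 sinusoidal endothelium markers the scavenger receptors Stab1 (0.85 ± 0.22) and Stab2 (1.15 ± 0.25) passed as positive; the 14 summed to 140 to 199, 68.2 to 188, 105 to 187 and 101 to 152 CPM in the same order, again with library 8 the highest of its group. None of 15 stellate cell markers passed (2 at an unadjusted p under 0.05, 0 by DESeq2 or voom). The part that a change in cell composition has in the 568 was not tested.

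Single members of other lists passed in the 15 libraries, at shares near the 3.86% of all genes, so these counts say nothing particular about the lists. Mlxipl, the gene of the sugar-responsive factor ChREBP, passed as positive (1.41 ± 0.38, adjusted p = 0.0468), the 1 gene of 22 in fatty acid synthesis and ChREBP targets. It stood at 643, 891, 585 and 713 CPM in WT at CT8 and 266, 204 and 307 CPM in libraries 5 to 7, library 8 at 462 CPM, and at 173 to 438 and 212 to 375 CPM in CryDKO. The interferon genes Oas2 (1.95 ± 0.54) and Stat2 (1.22 ± 0.27) passed of 36, the ribosomal protein genes Rpl34 (0.87 ± 0.23) and Rps24 (1.14 ± 0.28) of 52, and the cytochrome oxidase subunit Cox7b (0.82 ± 0.23) of 47 respiratory chain genes, all positive. Rpl34, Rps24 and Cox7b have many processed copies, so their counts are uncertain. Of 12 tested female-biased genes Cyp17a1 passed as negative. None passed among 17 male-biased genes, although their median of 1.08 was above that of every other list drawn, and none among 22 phase I enzymes, 25 PPAR alpha targets, 24 genes of cholesterol synthesis, 16 of bile acids, 22 of the cell cycle and 19 of heat shock. At an unadjusted p under 0.05 these lists held 1 to 4 genes each, and DESeq2 called 3 heat shock genes and 1 each of the male-biased, phase I and bile acid genes.

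**Figure D4:**
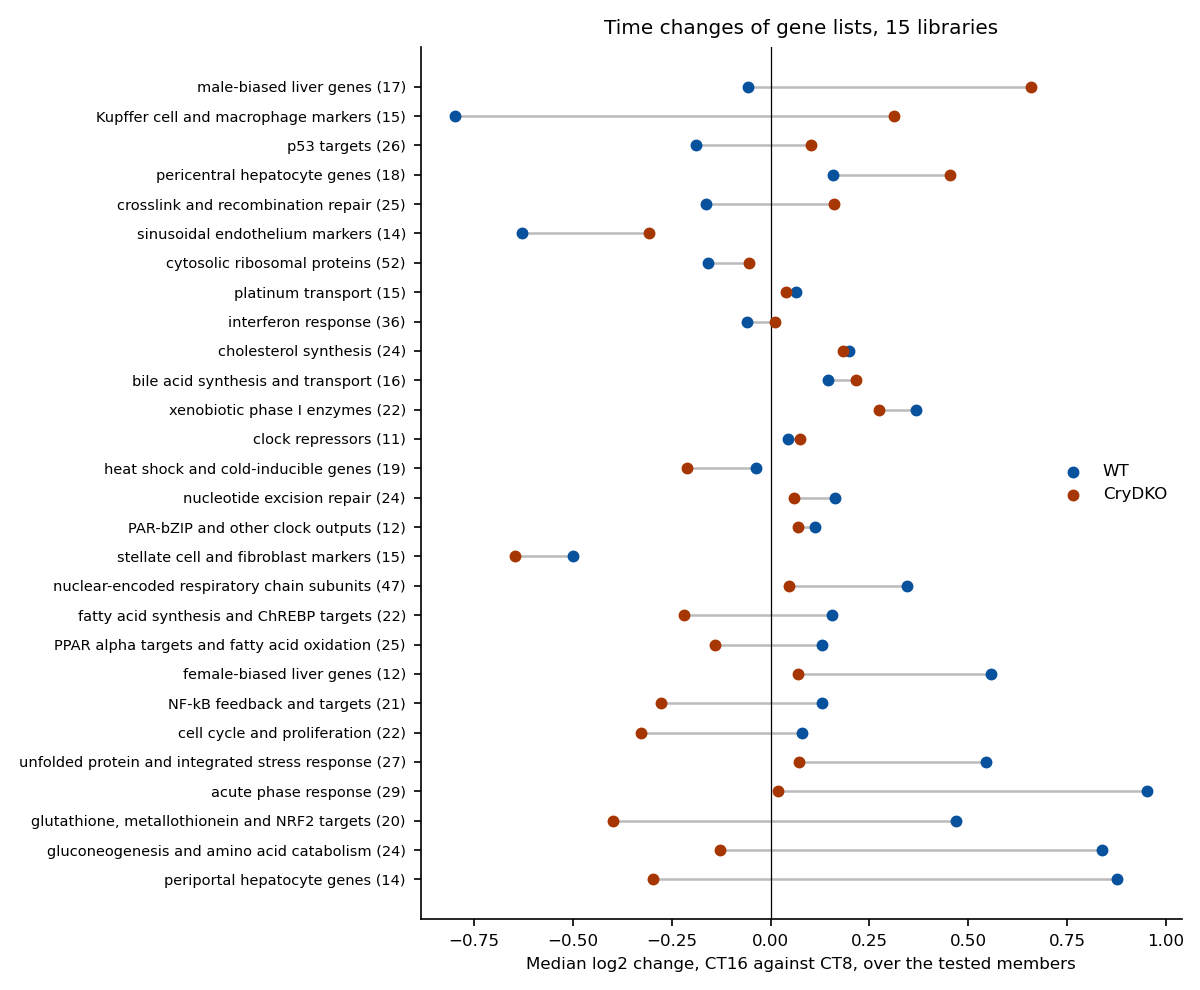
Median log2 change, CT16 against CT8, in WT (blue) and CryDKO (orange) for each of 28 gene lists with at least 10 tested members, in the 15 libraries; the number tested is in brackets and lists are ordered by their median interaction. Periportal genes have the lowest median interaction, -1.29, and male-biased genes the highest, 1.08.

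The direction of these counts is relative to the TMM scale, which sets the bulk of genes at no change. With libraries scaled by size alone the median interaction of all genes moved from -0.00377 to 0.321 in the 15 libraries, and 1207 genes passed, 1144 positive and 63 negative, in place of 275 and 293. All 568 genes kept their sign, but the median of the list of fatty acid synthesis turned from -0.315 to 0.0179 and that of respiratory chain subunits from -0.206 to 0.104, and the smaller medians of excision repair, heat shock, clock repressors, clock outputs, phase I enzymes and stellate markers turned too. Medians of the periportal, amino acid, acute phase, stress response and glutathione lists stayed below 0, at -0.978, -0.609, -0.366, -0.248 and -0.622. TMM factors were highest in WT_CT8 and library 8, as given above. The 568 also depended on other single libraries: 8 genes passed without WT_CT16 library 6, 38 without WT_CT8 library 4, 94 without WT_CT8 library 2, 127 without CryDKO_CT16 library 13, 173 without WT_CT16 library 5 and 178 without CryDKO_CT8 library 15. There were 322 without WT_CT16 library 7, 333 without WT_CT8 library 1 and 873 without CryDKO_CT8 library 16. Single genes differed widely, and Apoa4 was not unusual. Of the 15 fits that leave out a further library, Cox7b passed in 2, Gls2, Atf6 and Vsig4 in 3 and Ass1 in 4. Agxt passed in 13 and Gstm4 in 14.

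**Figure D5:**
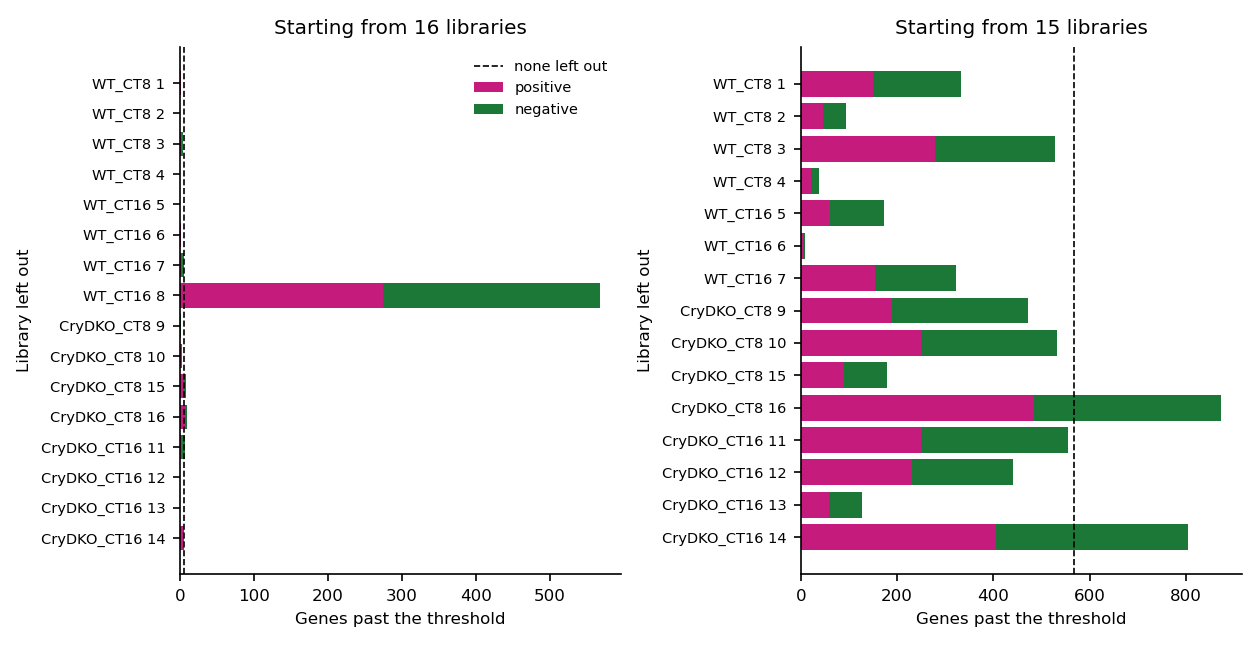
Number of genes past the threshold (x axis) when each library in turn is left out, starting from 16 libraries on the left and from the 15 on the right; colours give the sign and the dashed line the count with none left out. From 16 the counts are 0 to 9 except for 568 without WT_CT16 library 8, and from 15 they run from 8 to 873.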

How the data were processed

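Poly(A) RNA of whole liver was sequenced in 16 libraries. Per the submitters' processing notes, the authors used FastQC, Trimmomatic 0.35, STAR 2.5.3, HTSeq 1.99.2 and DESeq2 with the build GRCm39 (mm39); the annotation, strand option and settings are not given in the sources used here. In the deposited count table are raw counts of reads per gene symbol, 40840 rows and 16 columns; 0 rows named no gene and 0 columns stayed without a group. The authors' second deposited table is a normalized signal, counts divided by a size factor per library, for 19592 genes; there the numbers of the 4 CryDKO_CT8 columns are exchanged among themselves. It was used in 1 alternative.

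Groups came from the column names. The main tool was edgeR 4.0.16 in R 4.3.3: filterByExpr by group, TMM scaling, a robust quasi-likelihood fit with 1 coefficient per group, and a two-sided F test of the contrast, adjusted by Benjamini-Hochberg over all genes tested with a threshold of 0.05. The 2 comparisons are this contrast on 16 and on 15 libraries, with filter, scaling and dispersion computed anew. Standard errors are the size of the log2 value divided by the square root of F. Time changes within a genotype and genotype gaps come from the same fits and share their libraries, and are given as description without a test. Ranges and SDs of CPM are over the 4 libraries of a group. The precision of a value is set by 18083916 to 29934138 reads per library and the spread between libraries.

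The members and all 37 gene lists were chosen with earlier results of these data known, and 5 lists in the closing section after their values were seen; no set test was run. Named genes are Cry1, Cry2 and tested clock genes, the 10 largest positive and 10 largest negative values past the threshold in each fit (mean log2 CPM 1 or more, model names passed over), and up to 3 members per list; the pair of gene models in the 16-library result and the members of the 5 lists fall outside it, and 1 gene is not reported here. Alternatives were DESeq2 1.42.0, limma 3.58.1 (voom, voom with quality weights, and trend on log2 of the deposited values plus 1), other scalings, no filter, a filter at a mean of 50 reads, the fit without the robust option, and leaving out each library. Positions of library 8, list medians by scaling and list counts by tool were computed after the data had been seen. The scripts were tested on simulated data. Figures were drawn with Python 3.11.15.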

Additional observations from a re-analysis of the deposited data

Results flagged for a closer look

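In 20 of the 264 groups of 4 libraries examined (66 genes in 4 groups), 1 library lay far from the other 3 by Dixon's criterion at the 95% level. That is 7.58% of groups, and chance flags about 1 in 20. It was CryDKO_CT8 library 9 for Hlf (31.3 CPM), Apoa4 (14158 CPM), Abhd2 (277 CPM) and Gsr (118 CPM). WT_CT16 library 8 was such a library for Hdc (12.9 CPM), Gsr (43.4 CPM), Rev1 (28.1 CPM) and Oas2 (5.65 CPM). For Nr1d2 (57.6 CPM), Lbp (310.0 CPM) and Cox7b (135 CPM) the value apart was in CryDKO_CT16 library 12. It was CryDKO_CT16 library 14 for Tnfaip3 (3.23 CPM), Gpt (817 CPM) and Agxt (280.3 CPM). WT_CT16 library 5 was such a library for Bhlhe41 (8.62 CPM) and Nfil3 (31.6 CPM). For Hlf (71.8 CPM) the value apart was in CryDKO_CT16 library 11. It was CryDKO_CT16 library 13 for Hdc (14.6 CPM). WT_CT16 library 6 was such a library for Cyp17a1 (42.7 CPM). For Tnfaip3 (1.80 CPM) the value apart was in WT_CT8 library 1.

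The difference between the time changes of the 2 genotypes itself passed the test (edgeR, adjusted p under 0.05) with 16 libraries for Ppib (-1.72), Sult5a1 (2.98), Cyp2j9 (2.05), Tnfaip3 (-2.09), Gm43549 (3.38) and LOC118568335 (3.38), with the interaction as a log2 value in brackets. With 15 libraries it passed, as positive, for Cry1 (1.09), Lonrf3 (1.39), Sult5a1 (3.02), Cyp2j9 (2.25), Gm43549 (3.56), LOC118568335 (3.61), Mup-ps12 (4.23), Nup62cl (2.5), Cd163 (2.34), Wfdc17 (2.18), Nrep (2.14) and Trpm2 (2.07). Further positive values were those of Hdc (2.00), Hk3 (2.00), Clec4f (1.94), Vsig4 (1.83), Stab1 (0.85), Stab2 (1.15), Ddb2 (1.43), Rev1 (1.29), Mlxipl (1.41), Oas2 (1.95), Stat2 (1.22), Rpl34 (0.87), Rps24 (1.14) and Cox7b (0.82). As negative it passed for Ppib (-1.80), Tnfaip3 (-2.12), Apoa4 (-4.03), Aldh1b1 (-3.23), Lcn2 (-2.96), Cyp17a1 (-2.81), Nipal1 (-2.69), Slc41a3 (-2.07), Acad12 (-1.97), Abhd2 (-1.96), Adora1 (-1.88), Ass1 (-1.82), Gls2 (-1.68) and Gpt (-1.06). Further negative values were those of Agxt (-1.43), Hsd17b13 (-1.38), Hpx (-1.34), Lbp (-1.23), Pdia6 (-1.09), Atf6 (-0.74), Gstm2 (-1.28), Gstm4 (-1.22), Gsr (-0.98) and Rpa1 (-0.71). The 15-library values rest on leaving out the WT_CT16 library that lay with the WT_CT8 libraries, and of these genes Ppib, Tnfaip3, Sult5a1, Cyp2j9, Gm43549 and LOC118568335 passed with it.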

How the results depend on the processing

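With 16 libraries, in place of 6 genes, DESeq2 called 135, voom 1, voom with quality weights 940, limma trend on the deposited values 10, edgeR scaled by library size alone 0 (1882 at an unadjusted p under 0.05), edgeR without a low count filter 30 and with a mean of at least 50 reads 1. Size factors of DESeq2 gave 7 and no robust option 9. Of the 6 calls 4 were positive; the counts split into 69 positive and 66 negative by DESeq2, 483 and 457 with quality weights, 8 and 2 by trend, 14 and 16 without a filter, 7 and 2 without the robust option, and 0 and 1 by voom and by the mean of at least 50. Leaving out a library gave 0 to 568 genes. With 15 libraries, in place of 568, DESeq2 called 1312, voom with quality weights 1628, and library size alone 1207, with 1144 positive and 63 negative; a mean of at least 50 reads gave 609, with 395 positive and 214 negative. Voom gave 572, trend 475, DESeq2 size factors 547, no filter 464 and no robust option 577. Leaving out a further library gave 8 (without WT_CT16 library 6) to 873 (without CryDKO_CT8 library 16); 35.3% of the 173 without WT_CT16 library 5 were positive, against 48.4% of the 568. All 6 and all 568 kept their sign wherever they were tested, and the cause of these differences was not tested. For the genes examined closely, leaving out a library kept the side of the threshold in 659 results, lost the call in 325 and gained it in 6 with 15 libraries. The counts with 16 were 949, 59 and 48. Scaling by library size alone moved the median of all genes to 0.198 with 16 libraries. No paired analysis was possible because the table's columns carry running numbers, not the labels' replicate numbers.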

Other observations

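Beyond the lists of the report, 5 groups of genes were put together after their values in the 15 libraries had been seen, so their counts only describe them. Of 39 tested splicing factors and splicing kinases 15 passed as positive and 0 as negative, with a median interaction of 0.831 (time change -0.705 in WT and 0.0609 in CryDKO), against 1.87% positive and 1.99% negative calls and a median of -0.00377 over all genes. Snrnp70, a protein of the U1 particle that recognises the start of introns, stood at 209, 267, 202 and 267 CPM in WT at CT8, 103, 118 and 129.8 CPM in WT_CT16 libraries 5 to 7 and 191 CPM in library 8. In CryDKO it stood at 105, 131, 101 and 147 CPM at CT8 and 123, 132, 159 and 141 CPM at CT16. WT at CT8 was above all libraries of the other groups, and its interaction was 1.17 ± 0.22 (adjusted p = 0.0170). Luc7l2 (1.26 ± 0.25), Pnn (1.27 ± 0.26), Pnisr (1.23 ± 0.23) and the kinase gene Clk1, which phosphorylates splicing factors (1.01 ± 0.23), had the same sign. With library 8 included 0 of 39 passed in edgeR, 24 had an unadjusted p under 0.05, and DESeq2 called 3 and voom 0. Library 8 held 332 CPM of Luc7l2, within the 285 to 450 CPM of WT at CT8, while libraries 5 to 7 held 156, 137 and 175 CPM. Malat1, a nuclear RNA, was at 595 to 772 CPM in WT at CT8, 456 CPM in library 8, 147 to 310 CPM in libraries 5 to 7 and 169 to 434 CPM in CryDKO; its part in these values was not tested.

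Lists of the secretory and degradative routes, also put together after their values had been seen, had negative medians. Over all genes 1.99% passed as negative and the median was -0.00377. Of 41 tested lysosomal genes 12 passed as negative and 0 as positive, with a median of -0.602; they include the hydrolases Hexa (-1.02 ± 0.21), Gaa (-0.93 ± 0.19) and Naglu (-0.94 ± 0.20), the protease Ctsl (-1.51 ± 0.39) and the membrane protein Lamp1 (-0.82 ± 0.21). Of 23 Golgi and ER cargo receptors 9 passed as negative, with a median of -0.572, among them Surf4 (-0.79 ± 0.19) and Kdelr1 (-0.67 ± 0.18), which returns proteins to the endoplasmic reticulum. Of 30 genes of N-glycan transfer and translocation into the endoplasmic reticulum 5 passed as negative, with a median of -0.413, among them the catalytic subunit Stt3a (-1.02 ± 0.20) and the channel subunit Sec61a1 (-0.99 ± 0.24). Of 31 proteasome subunits 4 passed as negative, with a median of -0.305. In all 4 lists 0 passed as positive; with 16 libraries 0 passed in edgeR or voom, DESeq2 called 1 lysosomal and 1 Golgi gene, and 18, 12, 6 and 4 had an unadjusted p under 0.05. These calls depend on the scale. Scaled by library size alone, the negative calls went from 12 to 3 for the lysosomal list and from 9 to 1 for the Golgi list, with medians of -0.276 and -0.240 and 0 positive calls. The translocation list then had 1 negative and 2 positive calls and a median of -0.0861, and the proteasome list 0 negative and 1 positive with a median of 0.0136, so its sign turned. The splicing list had 27 positive and 0 negative calls on that scale.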
